A study of Mus musculus with 6 samples.

Results

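The insulin-like growth factor (IGF) axis was described here through 10 genes chosen by name: the ligands *Igf1* and *Igf2*, the receptors *Igf1r* and *Igf2r*, and the binding proteins *Igfbp2*, *Igfbp3*, *Igfbp4*, *Igfbp5*, *Igfbp6* and *Igfbp7*. Each of the 10 genes had 1 locus of its own among the 24402 loci of the deposited table of all loci. The values come from whole lungs of C57BL/6 mouse embryos at 12.5 *dpc*, with 3 libraries from wild-type embryos (control) and 3 from Yap-flox/flox; Shh-Cre/+ littermates (*Yap* mutant). Cre is expressed from *Shh* in the lung epithelium, so *Yap* is deleted there and stays intact in the mesenchyme. Whether a library held the lungs of a single embryo or of several is not given in the sources used here. The mutants are also heterozygous for the Cre insertion in *Shh*, which the wild-type controls do not carry, so loss of *Yap* and the altered *Shh* allele cannot be told apart in this comparison. The authors summarised the 3 libraries of a genotype into 1 FPKM value (a fragment count scaled by transcript length and library size). There is therefore no spread between libraries, no depth per library and no test, and all differences below are differences between 2 group values.

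IGF1 and IGF2 are small secreted growth factors that act through the tyrosine kinase receptor IGF1R, and in the fetus IGF2 also acts through the insulin receptor. IGF2R, the cation-independent mannose 6-phosphate receptor, does not relay a growth signal but takes IGF2 up for breakdown in lysosomes. The IGF binding proteins hold the ligands in the extracellular space, where they can block, store or deliver them, and proteases such as the pappalysins release the ligands again. *Igf2* and *Igf2r* are imprinted in the mouse, *Igf2* being expressed from the paternal and *Igf2r* from the maternal chromosome. Mice that lack *Igf1*, *Igf2* or *Igf1r* are born small, whereas loss of the clearance receptor *Igf2r* gives large newborns.

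The floxed gene, *Yap1*, had a whole-locus value of 76.1 FPKM in control lungs and 65.6 in the mutants, values that include the mesenchyme. The lung marker *Nkx2-1* was present in both groups, at 61.9 and 35.9 FPKM, as was the lung mesenchyme marker *Tbx4*, at 54.3 and 59.2 FPKM. The FPKM values of all loci summed to 538651 in control and 522467 in *Yap* mutant lungs, and the median log2 difference of the 12716 loci that averaged 1 FPKM or more was -0.01. The groups differed in the sex of the embryos as the listed values show it: 4 Y-linked genes reached no more than 0.0163 FPKM in controls and lay from 4.61 to 16.5 FPKM in the mutants, while *Xist* had 97.0 and 50.4 FPKM. With 1 value per genotype, embryo sex and genotype cannot be told apart in the differences below, and the part of sex was not tested.

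The IGF axis of these lungs was dominated by *Igf2*, *Igfbp5* and *Igfbp4*, and the largest fold differences between the genotypes lay in members of lower level than these. *Igfbp2* and *Igf1* were lower in *Yap* mutant lungs and *Igfbp3* was higher, each by at least 1.5-fold on the scale log2(FPKM + 0.1), which is the size of difference counted here. *Igf2r* came next, just short of that size. Of the 10 members, 9 averaged 1 FPKM or more, and *Igfbp6* did not. Past 1.5-fold were 3 of these 9 members, beside 7.75% of all 12716 loci averaging 1 FPKM or more. In the lower direction there were 2 members, beside 3.30% of all loci, and in the higher direction 1 member, beside 4.44%. The median log2 difference (*Yap* mutant minus control) of the 9 members was 0.13. Of the 9, 7 were higher and 2 were lower, whereas 48.2% of all loci past the filter were higher and 51.8% were lower.

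**Figure D1:**
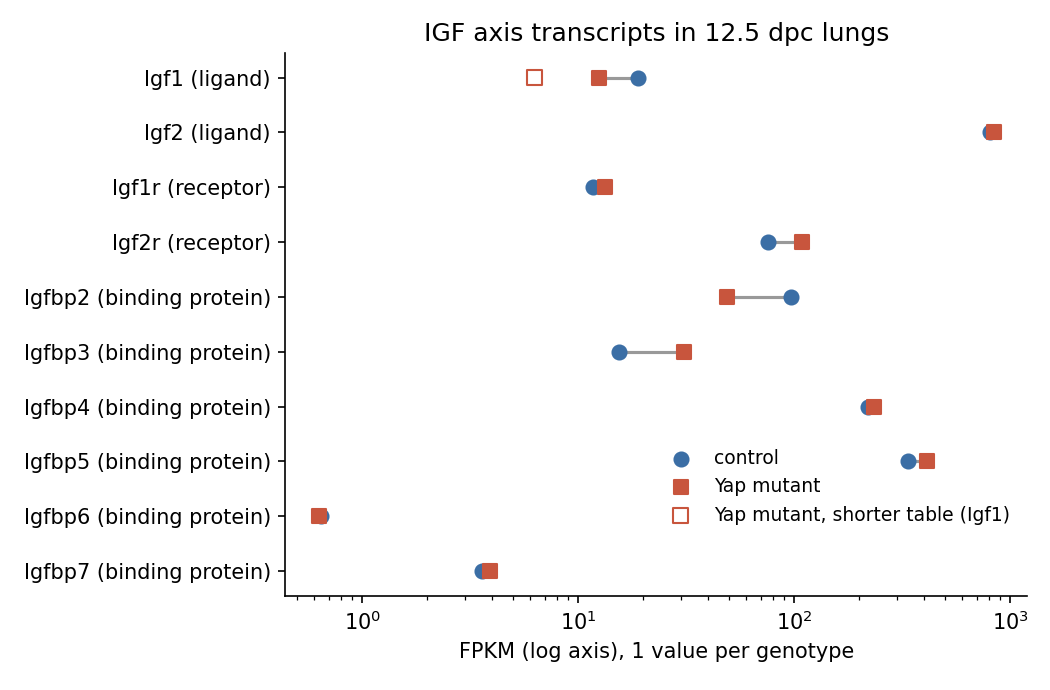
FPKM of each IGF axis member in control (circles) and *Yap* mutant lungs (filled squares) on a log axis, 1 value per genotype with no error, and the second listed *Yap* mutant value of *Igf1* (open square). *Igf2* lies highest, at 806 and 837 FPKM, and the widest gaps between the genotypes are those of *Igfbp2* and *Igfbp3*, together with the gap of *Igf1* to its open square.

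In order of level in control lungs, the members ran from *Igf2* through *Igfbp5*, *Igfbp4*, *Igfbp2*, *Igf2r*, *Igf1*, *Igfbp3*, *Igf1r* and *Igfbp7* to *Igfbp6*. In *Yap* mutant lungs *Igf2r* stood above *Igfbp2*, and *Igfbp3* and *Igf1r* both stood above *Igf1*. FPKM is a level per transcript length, so these orders compare genes, but without values per library it cannot be said which neighbours differ by more than their spread.

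*Igf2*, the main fetal growth factor of the axis, was the most abundant member in both genotypes. It had 806 FPKM in control lungs, rank 104 of 24402 loci, and 837 FPKM in *Yap* mutant lungs. The log2 difference was 0.06, and 35.2% of the loci past the filter were at least this much higher. The gene lies on the minus strand of chromosome 7, and its locus in the table runs from 142650766 to 142670356. The antisense transcript *Igf2as* is listed apart under the same interval, at 9.19 and 8.49 FPKM. The annotation places an antisense gene, *Igf2os*, only from 142659693 to 142670356. The annotated gene *Gm49394*, on the strand of *Igf2*, overlaps the *Igf2* locus and has no locus of its own. *Igf2* starts from several promoters, and RefSeq (GRCm38.p6) gave 4 start windows for it. The 250 bases before the start nearest the 3′ end of the locus (chr7:142657497-142657746, minus strand) are shown because they hold, in capitals, the letters GGAATG that TEAD factors bind as the DNA-binding partners of YAP, followed by a pair of GC boxes, GGGCGG.
Igf2: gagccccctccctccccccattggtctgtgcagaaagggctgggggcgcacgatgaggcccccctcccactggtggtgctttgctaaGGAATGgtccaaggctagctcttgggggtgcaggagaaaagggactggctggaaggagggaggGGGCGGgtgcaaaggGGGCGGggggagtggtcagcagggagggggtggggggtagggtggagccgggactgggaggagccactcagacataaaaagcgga
The value of *Igf2* covers all its promoters together, and the table does not separate them.

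*Igf1*, the other ligand, was far less abundant, at 18.9 FPKM in control lungs and 12.5 in the mutants. The mutant value was 0.661 times the control value, a log2 difference of -0.59, and 412 of the 12716 loci (3.24%) were at least this much lower. This is barely past the size counted, since 1.5-fold is 0.58 on the log2 scale, and it fell short of it with a pseudocount of 1 FPKM (-0.56) and with both groups rescaled to the same summed FPKM (-0.55). The locus lies on the plus strand of chromosome 10 from 87859056 to 87937047, and the annotation places an antisense gene, *Igf1os*, over its start. Its value in *Yap* mutant lungs was also not settled here, since 2 are listed and the authors' own fold changes were not used. A second, shorter deposited table of 2395 loci lists *Igf1* with the same control value but with 6.25 FPKM in *Yap* mutant lungs, 0.5 times the value above within 0.001. With that value the log2 difference would be -1.58, and 0.488% of the loci would be at least as much lower.

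The other members that both tables hold, *Igfbp2*, *Igfbp3*, *Igfbp5* and *Igf2r*, had the same values in each within 1%. Among 2380 loci paired between the tables by identifier, symbol and position, 10 differed by more than 1% in the *Yap* mutant value alone. For 3 of these, *Igf1*, *Pfn2* and *Ptk2b*, the shorter table's value was 0.5 times the other within 0.001, and for 2, *Myl1* and *Myl4*, it was 0.25 times the other. Another 2 paired loci, *Rnd3* and *Mylk2*, differed in the control value as well. The values of *Rnd3*, 35.8 and 29.5 FPKM, stand under opposite genotypes in the 2 tables. The *Igf1* mutant value of the shorter table is written with 10 significant digits, while that of the table of all loci has 6. More than 6 digits are found in 12 values of the shorter table and in 6 of the table of all loci. Both values are lower than control, so the direction for *Igf1* is the same in each table and the size is not. Of the summed ligand FPKM, *Igf1* made up 2.30% in control lungs and 1.47% in *Yap* mutant lungs, or 0.741% with the shorter table's value. The ratio of *Igf2* to *Igf1* FPKM was 42.5 in control lungs and 67.0 in *Yap* mutant lungs, or 133.9 with the shorter table's value.

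The signalling receptor gene *Igf1r* was low and nearly level, at 11.7 FPKM in control lungs and 13.3 in the mutants, a log2 difference of 0.18. It lies on the plus strand of chromosome 7, in a locus from 67951896 to 68233667. *Igf2r*, the clearance receptor, was more abundant, at 75.2 FPKM in control lungs and 108.2 in the mutants. The mutant value was 1.44 times the control value, a log2 difference of 0.52, which is short of 1.5-fold, and 5.05% of the loci past the filter were at least as much higher. Its FPKM exceeded that of *Igf1r* by 6.43 times in control and by 8.14 times in *Yap* mutant lungs.

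*Igf2r* lies on the minus strand of chromosome 17 from 12682406 to 12769706 in RefSeq. The table gives it a wider interval, to 12868143, which it shares with the antisense imprinted transcript *Airn* and with *Mas1*. *Airn*, made from the paternal chromosome and known to silence *Igf2r* there, is listed apart at 10.5 FPKM in control lungs and 13.9 in the mutants, so sense and antisense values were both higher in the mutants. The libraries kept strand, but whether the authors used it when assigning reads is not given in the sources used here, so the values of *Igf2r* and *Airn* are uncertain to the extent that their reads overlap. The same holds for *Igf1* and *Igf1os* and for *Igf2* and *Igf2as*.

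Among the binding proteins, *Igfbp2* and *Igfbp3* differed in opposite directions, by close to the same factor. *Igfbp2*, which encodes a binding protein that is abundant in the fetus, had 97.0 FPKM in control lungs and 48.7 in the mutants. The mutant value was 0.502 times the control value, a log2 difference of -0.99, and 165 of the 12716 loci (1.30%) were at least as much lower. *Igfbp3* encodes the main carrier of IGFs in adult serum. It had 15.4 FPKM in control lungs and 30.9 in the mutants. The mutant value was 2.0 times the control value, a log2 difference of 0.996, and 277 loci (2.18%) were at least as much higher. The ratio of *Igfbp2* to *Igfbp3* FPKM was 6.28 in control and 1.58 in *Yap* mutant lungs.

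**Figure D2:**
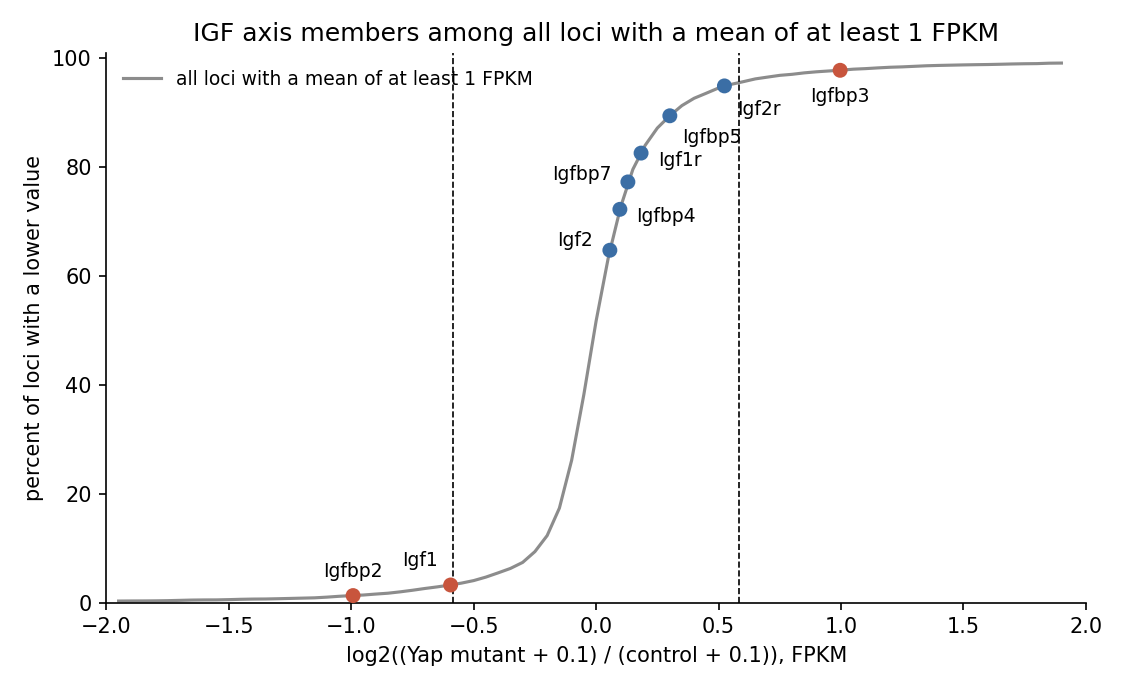
Percent of loci with a lower log2 difference (y axis) against the log2 difference between *Yap* mutant and control FPKM (x axis) for all 12716 loci averaging 1 FPKM or more (line), with the 9 IGF axis members past the same filter as points; dashed lines mark 1.5-fold. *Igfbp2* and *Igf1* lie past the left line, *Igfbp3* past the right line and *Igf2r* just inside it.

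For the binding protein genes with the widest differences, the 250 bases before an annotated start are shown so that they can be read against the TEAD letters above. *Igfbp2* has another start window, inside the gene from 72825137, that is not shown. For *Igfbp2* they are chr1:72824230-72824479 on the plus strand, and for *Igfbp3* chr11:7213924-7214173 on the minus strand (RefSeq, GRCm38.p6), with GC boxes in capitals.
Igfbp2: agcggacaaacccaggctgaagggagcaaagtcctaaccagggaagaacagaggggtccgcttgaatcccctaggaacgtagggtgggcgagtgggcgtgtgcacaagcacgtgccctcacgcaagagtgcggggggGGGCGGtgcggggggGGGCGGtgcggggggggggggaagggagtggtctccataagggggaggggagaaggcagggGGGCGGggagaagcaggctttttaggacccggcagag
Igfbp3: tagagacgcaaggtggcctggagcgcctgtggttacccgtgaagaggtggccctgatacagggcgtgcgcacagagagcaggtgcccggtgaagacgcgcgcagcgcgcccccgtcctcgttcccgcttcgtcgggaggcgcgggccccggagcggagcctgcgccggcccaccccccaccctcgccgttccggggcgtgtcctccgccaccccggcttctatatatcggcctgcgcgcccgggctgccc
Neither window shown holds GGAATG or its complement CATTCC, and the *Igfbp2* window shown holds 3 GC boxes while that of *Igfbp3* holds none (0).

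*Igfbp5*, the most abundant binding protein transcript, had 335 FPKM in control lungs and 413 in the mutants, a log2 difference of 0.30. *Igfbp4* had 219 and 234 FPKM, a log2 difference of 0.10. *Igfbp7*, whose product binds IGFs weakly, was low, at 3.56 and 3.91 FPKM (log2 difference 0.13), and shares its interval on chromosome 5 with *Polr2b*, which is listed apart. *Igfbp6*, whose product prefers IGF2 over IGF1, was the lowest member, at 0.646 and 0.630 FPKM. These 4 genes were within 1.5-fold, and *Igfbp5* was the nearest of them to that size.

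Summed over the 6 binding protein genes, the level was 671 FPKM in control lungs and 732 in the mutants, 9.02% more. Without *Igfbp2* the sum was 574 and 683 FPKM, 18.96% more. *Igfbp5* made up 49.97% of the sum in control and 56.5% in *Yap* mutant lungs, and *Igfbp4* 32.7% and 32.04%. *Igfbp2* made up 14.5% and 6.66%, and *Igfbp3* 2.30% and 4.22%. The summed level of the ligands was 824 FPKM in control lungs and 850 in the mutants, so the ratio of binding protein to ligand FPKM was 0.814 and 0.861. The summed levels of ligands and of binding proteins thus differed by less than *Igf1*, *Igfbp2*, *Igfbp3* and *Igfbp5* did.

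**Figure D3:**
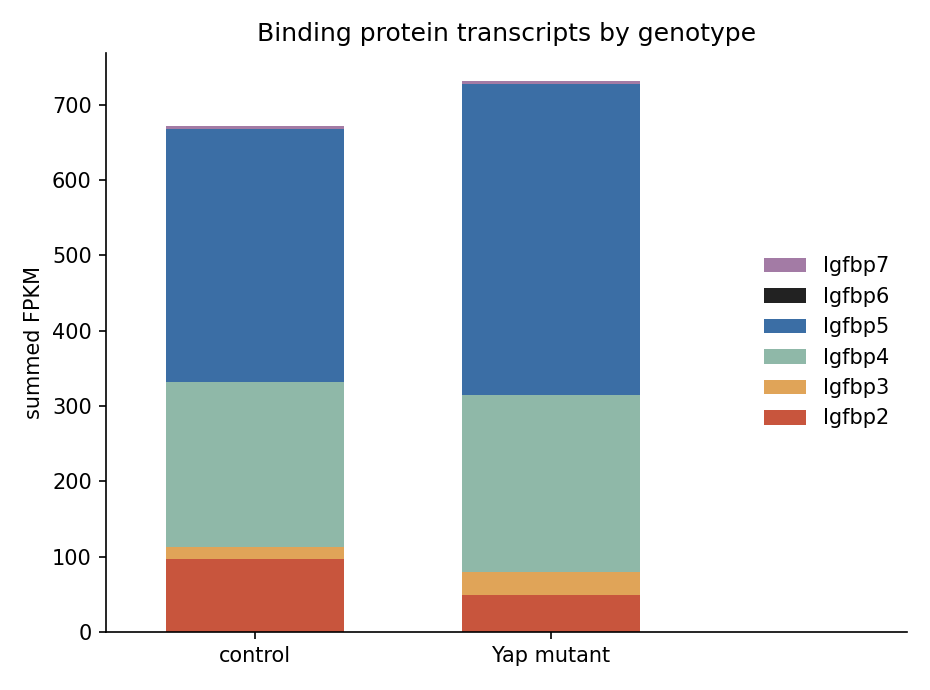
Stacked FPKM of the 6 IGF binding protein genes in control and *Yap* mutant lungs, 1 value per genotype with no error. The stacks reach 671 and 732 FPKM, with a thinner *Igfbp2* layer and thicker *Igfbp3* and *Igfbp5* layers in the mutants.

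*Igfbp2* and *Igfbp5* are close neighbours on chromosome 1, on opposite strands with their 3′ ends facing each other and 5463 bases between their loci. *Igfbp2* spans 72824480 to 72852471 and *Igfbp5* spans 72857935 to 72875013. The former was lower and the latter higher in *Yap* mutant lungs, so the ratio of *Igfbp5* to *Igfbp2* FPKM was 3.46 in control and 8.48 in *Yap* mutant lungs. On the other side of *Igfbp2*, *Rpl37a*, a ribosomal protein gene, had a log2 difference of 0.06. *Igfbp3* (chromosome 11, 7206091 to 7213923) lies 3544 bases from *Igfbp1*, a binding protein gene best known from the liver, which was near 0 in both groups, at 0.200 and 0.137 FPKM. The nearest loci averaging 1 FPKM or more were *Adcy1* and *Tns3*, with log2 differences of -0.17 and -0.27. Above *Igf1* on chromosome 10, the nearest such locus was *Parpbp*, with a log2 difference of -0.09.

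All 10 members had at least 1 start window in the RefSeq table, 14 windows in all, each of 300 bases from 250 before to 50 after a start. GGAATG or CATTCC was found in 4 of the 14 windows, those of *Igfbp5* (1 of 1) and *Igf2* (3 of 4), and in 14.7% of the 32851 windows of all genes. In *Igfbp5* the letters begin 233 bases before the start. GGGCGG or CCGCCC was found in 6 of the 14 windows, of 5 genes, and in 35.7% of all windows, and TATAAA or TTTATA in 2 of the 14, of *Igfbp4* and *Igfbp6*, and in 13.6% of all. No hits of these 3 motifs overlapped each other. *Igfbp2* and *Igfbp3* had no TEAD letters in the windows searched, and bases beyond these windows were not searched. The *Igf1* window had none either, but it starts at 87860861, inside the gene, whose annotated start is at 87858265, so the bases before that start were not searched. The *Igfbp5* window and some windows of *Igf2* and *Igfbp2* also overlap annotated exons of their own gene. The paper searched longer promoter stretches and also used YAP ChIP-Seq peaks. These are matches of letters in short windows and not measurements of binding, and a link between the letters and the differences was not tested.

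Outside the 10 genes, a list of 34 other genes of IGF and insulin signalling was examined, of which 34 had a locus and 29 averaged 1 FPKM or more. Past 1.5-fold were 2 of the 29 (1 lower, 1 higher), beside 7.75% of all loci, a share near that of the list. The median log2 difference of the 29 was 0.01, with 14 lower and 15 higher. The lower gene was *Irs1*, which encodes a docking protein that carries the signal from IGF1R and the insulin receptor to PI3 kinase. It had 12.3 FPKM in control lungs and 7.45 in the mutants, a log2 difference of -0.72, whereas its relative *Irs2* had 7.72 and 8.63 FPKM. The higher gene was *Igfbpl1*, which encodes a protein related to the IGF binding proteins, at 1.26 and 5.58 FPKM, a log2 difference of 2.07.

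Around the ligands and receptors, the insulin receptor gene *Insr* had 6.18 and 8.45 FPKM, a log2 difference of 0.45. Among the genes that govern release of IGFs from their binding proteins, the pappalysin genes *Pappa* and *Pappa2* had log2 differences of -0.26 and -0.45, and the pappalysin inhibitor genes *Stc1* and *Stc2* had 0.36 and 0.01. *Pappa2* had 4.54 FPKM in control lungs and 3.29 in the mutants. *Grb10*, an imprinted gene for an adaptor that restrains signalling by these receptors, was among the 3 most abundant genes of the list, at 385 and 337 FPKM (log2 difference -0.19). The others were *H19*, at 2060 and 1866 FPKM (-0.14), and *Akt1*, at 136.5 and 129.8 FPKM (-0.07). *H19*, an imprinted noncoding RNA gene 72.6 kb from *Igf2*, shares enhancers with it. The genes for the RNA-binding proteins that recognise *Igf2* mRNA, *Igf2bp1*, *Igf2bp2* and *Igf2bp3*, had 26.4, 76.8 and 47.0 FPKM in control lungs and log2 differences of 0.04, -0.07 and -0.09. The PI3 kinase and AKT genes of the list lay between -0.25 (*Pik3cb*) and 0.16 (*Pik3r1*). *Shc1* shares its locus with *Pygo2*, so its own value is uncertain.

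**Figure D4:**
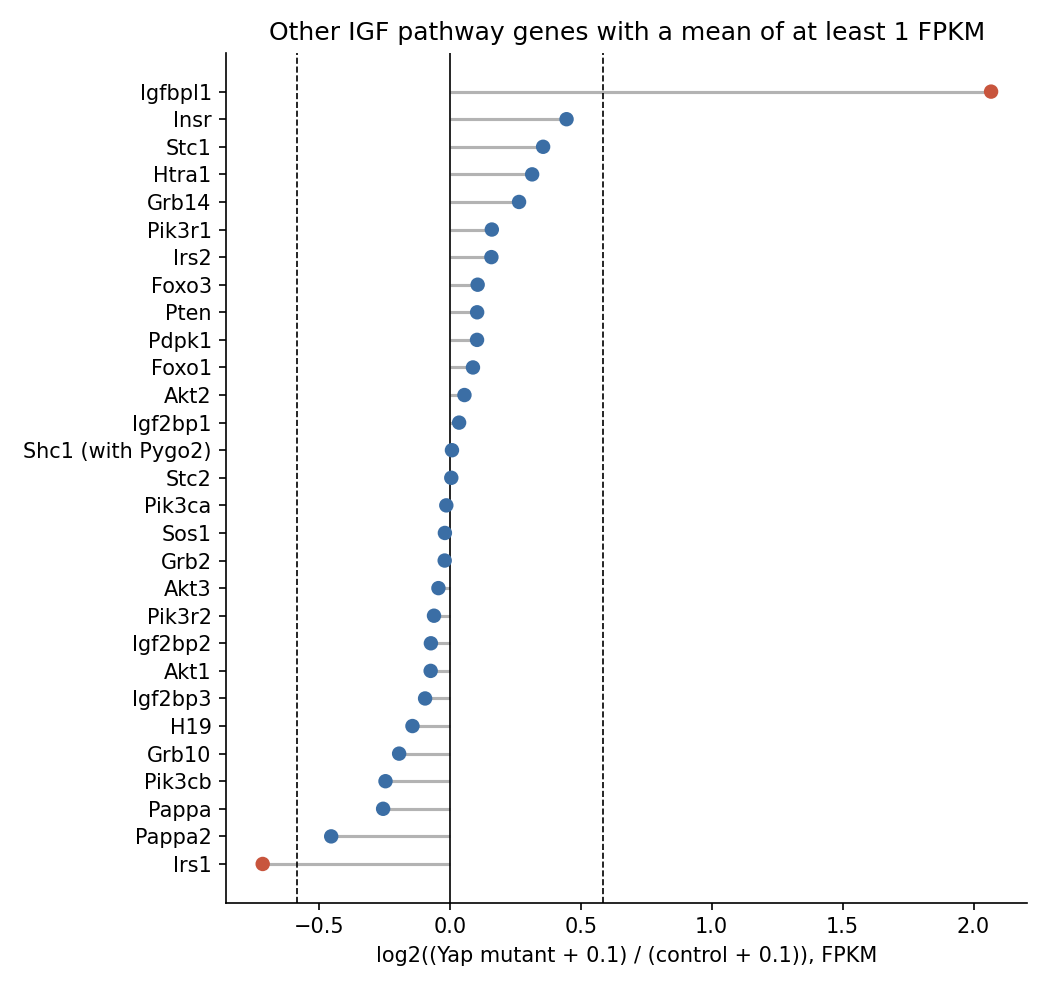
Log2 difference between *Yap* mutant and control FPKM for the 29 other IGF and insulin pathway genes averaging 1 FPKM or more; dashed lines mark 1.5-fold. *Irs1*, at -0.72, and *Igfbpl1*, at 2.07, lie past the lines and the other 27 between them.

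Because RNA came from whole lungs, fewer cells of a type and less RNA per cell cannot be told apart, and markers of several cell types differed between the groups. Of 15 epithelial markers, 13 were lower and 2 higher, with a median log2 difference of -0.63, and their summed level was 656 FPKM in control lungs and 574 in the mutants. The 2 higher markers, *Id2* (118 and 211 FPKM) and *Sftpc* (28.4 and 55.8 FPKM), are part of these sums. Of 7 smooth muscle markers, 6 were lower, with a median of -1.06 and summed levels of 289 and 148 FPKM. All 7 neural markers passed the filter and 6 of them were lower, with a median of -0.52 and summed levels of 21.1 and 14.0 FPKM. *Igfbp2*, *Igf1* and *Irs1* were lower as well, but with 1 value per genotype a shared direction shows no likeness between genes and lists. Of 6 cartilage markers 5 had a locus, of which *Matn1* was at 0 in both groups, and the 3 past the filter were lower, with a median of -0.51 and summed levels of 57.3 and 39.1 FPKM over the 5.

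Cardiac muscle markers were higher in 8 of 8 genes, with a median log2 difference of 3.13 and summed levels of 120 FPKM in control lungs and 879 in the mutants. The mutant values of 2 of these genes, *Myl7* and *Myl4*, differ between the tables, and with those of the shorter table the mutant sum was 503 FPKM and the median 2.91, with 8 of 8 still higher. The mutant value of *Actc1*, 96.1 FPKM, is among the few written with more than 6 digits, so it is uncertain in both sums. Liver markers were likewise higher in 4 of the 5 past the filter, led by *Ttr*, *Afp* and *Trf*, with summed levels of 13.6 and 60.0 FPKM over 8 genes. *Alb*, the defining gene of hepatocytes, was low in both groups, at 1.28 and 1.14 FPKM. Mesenchymal markers had a median of 0.08 (9 of 12 higher, summed levels 1632 and 1649 FPKM), endothelial markers 0.15 (7 of 8 higher, 172 and 189 FPKM), mesothelial markers 0.31 (3 of 5 higher, 70.4 and 79.9 FPKM over 6 genes) and erythroid markers 0.15 (6 of 6 loci higher, 5728 and 6163 FPKM over 7 loci). Among the mesenchymal markers, *Foxf1* (83.5 FPKM in control lungs and 41.6 in the mutants) and *Wnt2* (46.5 and 27.3 FPKM) were lower past 1.5-fold. *Fgf10* was higher past that size, at 10.4 and 26.6 FPKM, and the rest of that list lay within it. The part of any of the cell types named here in the differences of the IGF axis was not tested.

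**Figure D5:**
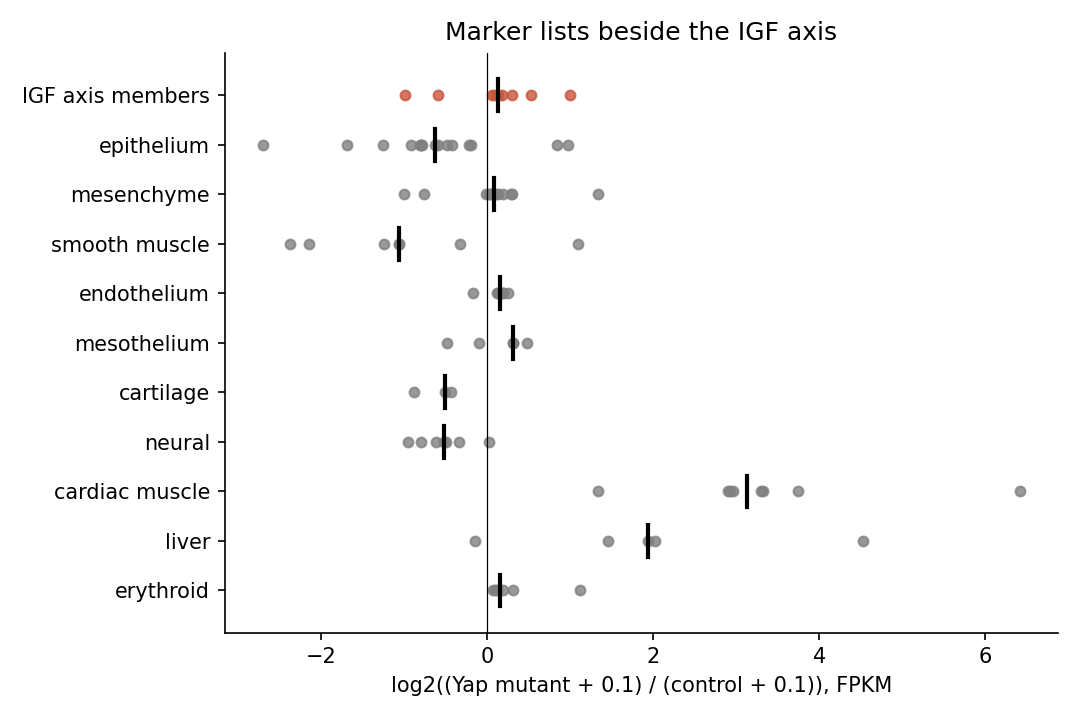
Log2 difference between *Yap* mutant and control FPKM for the IGF axis members and for cell type markers averaging 1 FPKM or more; points are genes and black bars are list medians. The median of the IGF axis, 0.13, lies near those of the endothelial (0.15), erythroid (0.15) and mesenchymal markers (0.08). It lies far from the cardiac muscle markers, at 3.13. The members themselves run from -0.99 to 0.996.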

How the data were processed

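RNA from whole lungs was made into strand-specific paired-end libraries by the authors and sequenced on HiSeq instruments. The submitters' processing notes name TopHat, Cuffdiff and the build mm10, and the paper names the Maverix platform. The sources used here give no version, no annotation and no setting for strand. The authors deposited 2 tables with 1 FPKM value per genotype, in which the 3 libraries of a genotype are summarised. The unit is not named in the tables and was read from their Cuffdiff layout. The tables also hold the authors' log2 fold changes and p-values, which were not used. No column belonged to other samples (0). Depth per library is unknown, so no interval or test was computed.

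From the table of all loci, loci were taken whose symbols hold a member. The log2 difference was log2((*Yap* mutant + 0.1)/(control + 0.1)), counted past 1.5-fold among loci averaging 1 FPKM or more. The rule was run on simulated data, and its error with 1 value per genotype was not tested. Named genes were the members, other pathway genes past 1.5-fold, the 3 most abundant of them, *Insr*, *Igfbp1*, *H19* and *Igf2bp1* to *Igf2bp3*, the neighbours of members past 1.5-fold, *Yap1* and markers. A gene that falls under this rule is not reported here. Further pathway genes, *Xist*, the genes whose 2 listed values differ and those in the closing section were named after their values were seen. The members and lists were chosen with earlier results of these data known. Locus starts were written with 1 added, on mm10 (GRCm38), and overlaps were read from GENCODE M21. Promoter windows came from RefSeq on GRCm38.p6, and all 10 members matched by symbol. Alternatives were other pseudocounts, filters, thresholds and scalings and the values of the shorter table. Python 3.11.15, numpy 2.4.6, pandas 2.3.3 and matplotlib 3.10.9 were used.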

Additional observations from a re-analysis of the deposited data

How the results depend on the processing

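The 9 members past the filter kept the sign of their log2 differences under every alternative in which they had a value; *Igfbp6* was not recomputed under a changed scale, so nothing is said of its sign. With a pseudocount of 1 FPKM, or with both groups rescaled to the same summed FPKM, 2 of 9 members were past 1.5-fold, *Igfbp2* and *Igfbp3*, and *Igf1* was not. The shares of all loci were 5.42% and 8.03%. At a 2-fold threshold 0 of 9 members, 1 of 29 other pathway genes (3.45%) and 437 of 12716 loci (3.44%) passed. At a threshold of 0.32 on the log2 scale 4 of 9 members, 5 of 29 other pathway genes (17.2%) and 2090 of 12716 loci (16.4%) did. With no filter on low values 3 of 10 members, 5 of 34 other pathway genes (14.7%) and 2569 of 24402 loci (10.5%) were past 1.5-fold. With a minimum mean of 5 FPKM, 3 of 8 members, 1 of 22 other pathway genes (4.55%) and 399 of 9544 loci (4.18%) were. The median of the members was 0.11 with a pseudocount of 1 FPKM, 0.11 with no filter, 0.14 with that minimum, 0.14 relative to the median over all loci and 0.17 after rescaling. With the shorter table's values the log2 difference of *Igf1* was -1.58 and that of the summed ligands 0.033 in place of 0.044. The plain ratio without a pseudocount and the sums and list medians with the shorter table's values were chosen after seeing the data. The plain ratio gave 3 of 9 members past 1.5-fold, beside 8.07% of all loci. No paired analysis was possible because the tables hold 1 value per genotype, and for the same reason no replicate could be left out. Depth per library is unknown, which leaves the precision of the low members, *Igfbp6* and *Igfbp7*, unknown as well.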

Other observations

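*Igf2*, *Igf2r*, *H19* and *Grb10* belong to a group of imprinted genes that act on fetal growth, and 10 further genes of this kind, listed after the values of the IGF axis were seen, covered 12 loci past the filter. In the mutants 8 of these loci were higher and 4 lower, beside 48.2% and 51.8% of all loci past the filter. The median log2 difference of the 12 was 0.20, beside -0.01 over all loci past the filter. Past 1.5-fold were 2 of the 12, beside 7.75% of all loci. *Peg3* and *Gnas* each count through more than 1 locus, and *Airn*, described above with *Igf2r*, is on the list. *Dlk1*, which encodes a membrane protein of the fetal mesenchyme related to Notch ligands, had 154 FPKM in control lungs and 281 in the mutants, a log2 difference of 0.87. *Meg3*, the noncoding RNA gene beside it that is expressed from the other parental chromosome, had 146 and 196 FPKM (0.42), a locus value that includes the microRNAs it hosts. *Plagl1*, a zinc finger gene, had 177 and 228 FPKM (0.36). *Phlda2*, known for restraining growth of the placenta, was low, at 1.46 and 2.66 FPKM (0.82). *Mest* and *Cdkn1c* were abundant, at 525 and 307 FPKM in control lungs, with log2 differences of -0.08 and -0.15.

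Several proteins outside the 10 IGF axis genes carry a domain like the one with which IGF binding proteins hold their ligand. Of their genes, 13 were examined and 8 passed the filter. Past 1.5-fold were 3 of the 8 (1 lower, 2 higher), beside 7.75% of all loci. Among these 3 is *Igfbpl1*, already described with the other pathway genes. *Esm1*, an endothelial secreted proteoglycan gene, had 1.18 FPKM in control lungs and 4.39 in the mutants, a log2 difference of 1.81. *Cyr61*, a matricellular gene long known as a YAP target, had 8.82 and 5.18 FPKM (-0.76). *Ctgf*, another matricellular gene known as a YAP target, had 6.24 and 4.75 FPKM (-0.39), which is within 1.5-fold. *Htra1*, *Htra3*, *Wisp1* and *Crim1* lay between -0.22 and 0.31. *Ghr*, the receptor gene for growth hormone, had 49.2 and 39.5 FPKM (-0.31), while the hormone genes *Gh* and *Ins1* were listed at 0 in both groups.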
